A study of Homo sapiens with 62 samples.

Results

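The data described here were the AsPC-1 SLAM-seq libraries treated for 12 h with CB-6644, an inhibitor of the ATPase complex RUVBL1/2, or with the vehicle DMSO. They were 8 of the 62 samples of the series, 4 labelled replicates of each treatment, and were chosen by their cell line, treatment and time. AsPC-1 is a human pancreatic ductal adenocarcinoma line. All 8 samples carried the genotype that the labels write as FKBP12-F36V-FLAG-KLF5_sgEndogenousKLF5, so KLF5 was supplied as a degron-tagged lentiviral cDNA while a guide RNA was directed at the endogenous gene, in antibiotic-selected cells. None of the 8 received a degrader. The libraries came from batch 2 of the labels, whereas the AsPC-1 libraries treated for 4 h, 5 with CB-6644 and 5 with DMSO, came from batch 1. The labels did not say that the replicates were separate cultures, so p-values measure the spread between these samples, which may be partly technical.

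RUVBL1 and RUVBL2 form a ring-shaped AAA+ ATPase. With HSP90 in the R2TP co-chaperone it assembles large machines that include RNA polymerase II, the PIKK kinases and the box C/D small nucleolar ribonucleoproteins, and it is also a subunit of the chromatin remodellers INO80, SRCAP and TIP60. In SLAM-seq, cells are fed 4-thiouridine for a short pulse before harvest, and the thiol is alkylated so that reads from RNA made during the pulse carry T>C changes. Reads with T>C changes, called labelled reads below, report recent transcription, and all reads of the same library report the total RNA pool. Without a spike-in, every value is relative to the rest of its library.

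The 8 libraries held 146734722 to 200298262 reads over 3′ UTRs, of which 12645098 to 18311982 were labelled, and the tables listed 29794 genes. All 10 epithelial markers were detected in every library. The 12 fibroblast, immune and endothelial markers summed to between 11.3 and 27.7 CPM (counts scaled to a common library total) of all reads. The libraries fell into a split that crossed the treatment. DCLK1 was at 0.42 to 0.67 CPM of all reads in replicates 1 and 2 and at 19.7 to 29.5 CPM in replicates 3 and 4, in both arms. Of the genes tested in all reads, 331 were over 2-fold higher in all 4 libraries of replicates 1 and 2, and 98 in all 4 libraries of replicates 3 and 4. Each CB-6644 library was compared with the DMSO library of the same number. In the labelled reads, none of 12204 genes passed an adjusted p of 0.05 (edgeR quasi-likelihood test with the replicate number as a block, Benjamini-Hochberg), a background of 0% of genes. At an unadjusted p under 0.05, 385 genes were higher (3.15%) and 325 lower (2.66%). None of 14398 genes passed in all reads (0%), where 339 were higher (2.35%) and 243 lower (1.69%) at an unadjusted p under 0.05. DESeq2 with the same block called 51 genes in labelled reads (0.418%) and 45 in all reads (0.313%), of which 15 were shared. Levels and fold changes of single genes below are therefore descriptions unless a call is named.

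The share of reads with T>C changes asks whether recent RNA made up a smaller part of the library after 12 h of inhibition. With CB-6644 it was 9.14%, 9.77%, 8.25% and 8.10% in replicates 1 to 4, and with DMSO it was 9.83%, 9.38%, 8.47% and 9.30%. The share was lower in 3 of the 4 pairs, and the groups overlapped. The means were 8.81% ± 0.786 and 9.24% ± 0.566 (SD, n = 4 each), a difference of -0.430 percentage points (exact permutation test, two-sided, of the 70 possible arrangements, p = 0.40, where the smallest possible p was 0.0286). An exact sign-flip test of the 4 pairs, the replicate block of this value, gave p = 0.375, and 4 pairs cannot reach a p of 0.05 in it. A difference in this share was not detectable with 4 libraries a group.

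**Figure D1:**
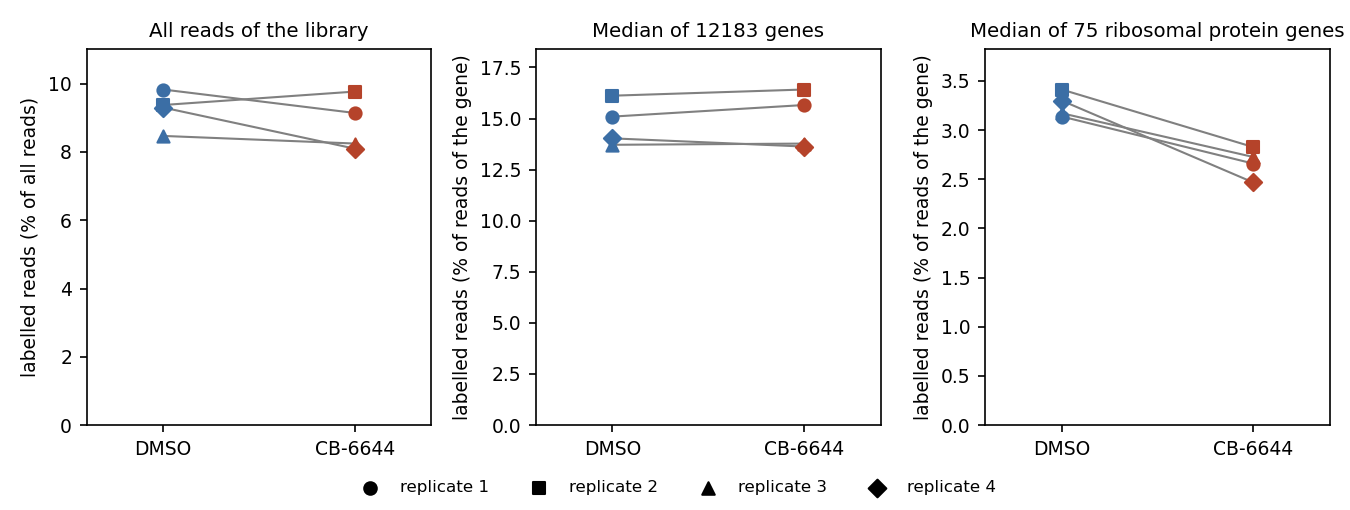
Share of labelled reads with DMSO and CB-6644 for 12 h, over each whole library (left), as the median over 12183 genes (middle) and as the median over 75 cytosolic ribosomal protein genes (right). Each line joins the libraries of 1 replicate number. The left panel overlaps between treatments, whereas the 4 CB-6644 libraries of the right panel, 2.47% to 2.83%, all lie below the 4 DMSO libraries, 3.14% to 3.41%.

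The labelled share was then compared gene by gene, by testing in each library whether the labelled reads of a gene moved differently from its unlabelled reads. Differences in labelled share on the log2 scale, here and below, are changes in the ratio of labelled to unlabelled reads. Each kind of read was scaled by its own library size, so they are not log2 changes of the percentages. SNHG25 and RNU4ATAC passed the test, and both fell. They were 2 of 12183 genes (0.0164%). At an unadjusted p under 0.05, 391 genes had a higher labelled share (3.21%) and 435 a lower one (3.57%). In 140 genes (1.15%) all 4 CB-6644 shares lay above all 4 DMSO shares, and in 249 (2.04%) all 4 lay below.

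SNHG25 is a small nucleolar RNA host gene, a non-coding gene that carries snoRNAs. It lies on chromosome 17 of hg38 at 64145937 to 64146476 on the plus strand, where the annotation places SNORA50C and SNORD104 within it. Of its reads, 12.6%, 16.9%, 9.42% and 7.61% were labelled with CB-6644 in replicates 1 to 4, against 39.0%, 34.1%, 34.9% and 28.2% with DMSO. The highest CB-6644 share was below the lowest DMSO share. The ratio of labelled to unlabelled reads fell by 2.00 on the log2 scale (SE 0.16, edgeR adjusted p = 0.0223). In labelled reads SNHG25 was at 70.7, 118, 53.2 and 39.7 CPM with CB-6644 and 585, 368, 267 and 101 CPM with DMSO. In all reads the levels overlapped, at 52.2, 67.7, 47.5 and 43.8 CPM against 139, 103, 64.6 and 32.3 CPM. The 4 h libraries gave a log2 difference in labelled share of 0.02 (SE 0.27), with shares of 10.8% to 36.5% with CB-6644 and 9.06% to 37.9% with DMSO.

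RNU4ATAC encodes the U4atac small nuclear RNA of the minor spliceosome. It lies on chromosome 2 at 121530881 to 121531007, on the strand opposite to CLASP1 and inside that gene. CLASP1-AS1 overlaps it on the same strand, and whether its reads came from that gene was not tested. The labelled share of RNU4ATAC was 0.669%, 0.540%, 0.804% and 1.25% with CB-6644 and 1.88%, 2.04%, 3.104% and 3.53% with DMSO. The groups did not overlap, and the ratio of labelled to unlabelled reads fell by 1.73 on the log2 scale (SE 0.15, edgeR adjusted p = 0.0223). At 4 h the value was -0.59 (SE 0.11), with shares of 1.24% to 1.52% against 2.06% to 2.55%. The library took polyadenylated RNA, and mature U4atac has no poly(A) tail, so which RNA form these reads came from was not tested. None of 11622 genes passed at 4 h (0%), where 481 genes (4.14%) had a higher and 585 (5.03%) a lower labelled share at an unadjusted p under 0.05. The calls depended on which pairs were kept. Without replicate 1, 3 or 4 neither gene passed, without replicate 2 only SNHG25 did, and the leave-one-out values were -2.22 to -1.89 for SNHG25 and -1.83 to -1.64 for RNU4ATAC. Without the replicate block RNU4ATAC did not pass (edgeR adjusted p = 0.218), and SNHG25 did (adjusted p = 0.015).

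**Figure D2:**
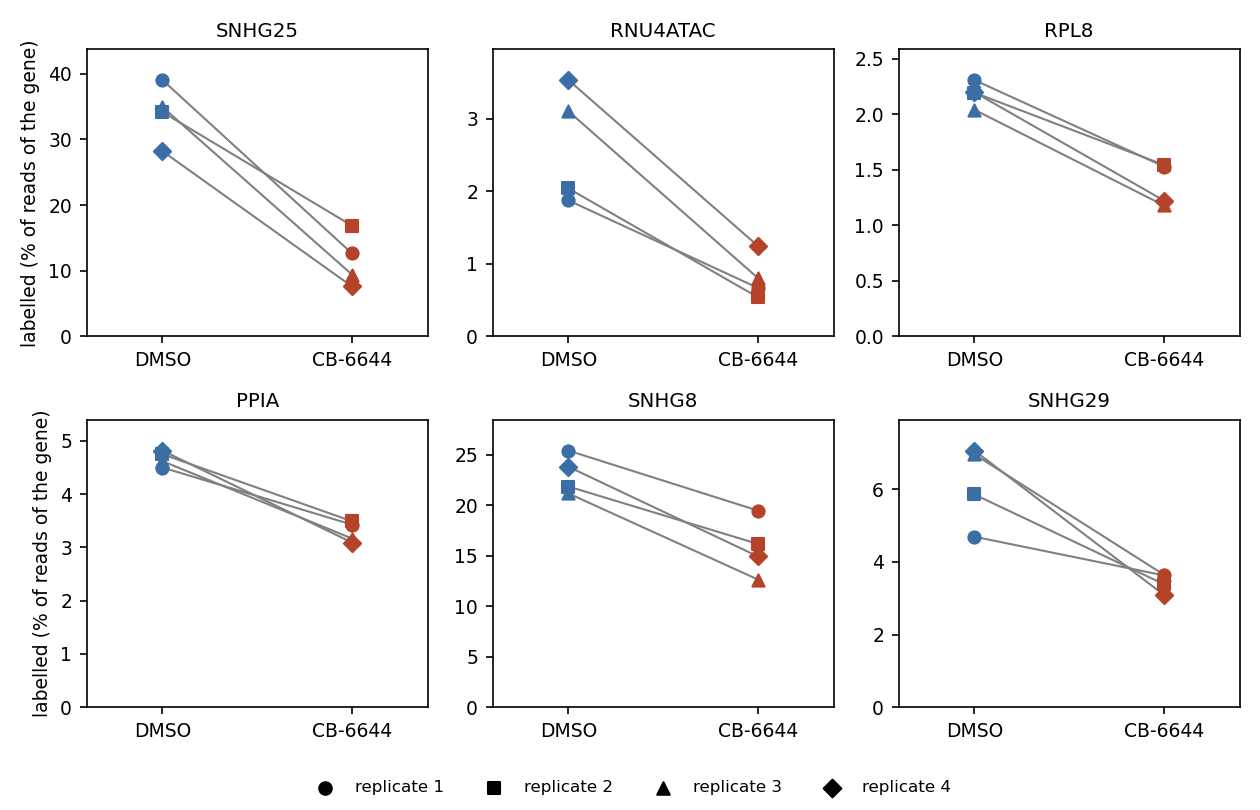
Labelled share, as a percentage of the reads of the gene, for 6 of the genes with the smallest p in the labelled against unlabelled test. Each line joins the DMSO and CB-6644 library of 1 replicate number, and the vertical axes start at 0. In all 6 genes the 4 CB-6644 libraries lie below the 4 DMSO libraries, from 7.61% to 16.9% against 28.2% to 39.0% for SNHG25.

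Cytosolic ribosomal protein genes, which encode the structural proteins of the ribosome, were the list with the most members past an unadjusted p of 0.05 in labelled share. Of 75 tested, 69 had a lower labelled share with CB-6644. At an unadjusted p under 0.05, 43 were lower and 0 higher, against 3.57% of all genes lower. The median difference was -0.29 on the log2 scale, and 0.01 over all genes. The list's median in each pair was -0.26, -0.28, -0.31 and -0.24. In 26 of the 75 all CB-6644 shares lay below all DMSO shares, against 2.04% of all genes. None passed the adjusted test with the replicate block.

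In percentages, the median labelled share of these 75 genes was 2.66%, 2.83%, 2.73% and 2.47% with CB-6644 and 3.14%, 3.41%, 3.17% and 3.2998% with DMSO. Over all 12183 genes the medians were 15.7%, 16.4%, 13.8% and 13.6% against 15.1%, 16.1%, 13.7% and 14.03%. Ribosomal protein mRNAs thus had low labelled shares in both arms. How far shares this low, here and for RNU4ATAC, lie above the T>C reads expected without labelling was not tested. The median share of the ribosomal protein mRNAs was lower with CB-6644 in every pair. Their total RNA showed no such shift. The median fold change in all reads was 0.01 (log2), with 34 of 78 below 0, and the pair medians ran from -0.40 to 0.41. In labelled reads the median was -0.25, with 67 of 75 below 0, but the pair medians ranged from -0.58 to 0.09. At 4 h the list did not lean the same way. Its median difference in labelled share was 0.03. At an unadjusted p under 0.05, 13 of its 75 genes were higher and 2 lower, against 4.14% and 5.03% of all genes. Time and batch cannot be told apart in that contrast.

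RPL8, a protein of the large subunit, had the smallest p of the list. Its labelled share was 1.53%, 1.54%, 1.18% and 1.22% with CB-6644 and 2.31%, 2.19%, 2.04% and 2.198% with DMSO (log2 difference -0.67, SE 0.08, edgeR adjusted p = 0.109). Without the replicate block RPL8 passed the test (edgeR adjusted p = 0.0288). RPS23 of the small subunit was at 2.80%, 2.67%, 2.98% and 2.66% against 3.73%, 3.90%, 3.96% and 3.70% (log2 difference -0.46, SE 0.08, edgeR adjusted p = 0.282). RPS3, also of the small subunit, was at 1.32%, 1.53%, 1.14% and 1.28% against 1.73%, 1.81%, 1.61% and 1.67%. RPS12 was at 2.03%, 1.93%, 1.49% and 1.46% against 2.74%, 2.26%, 2.39% and 2.35%. In each of these 4 genes the groups did not overlap. FAU had the highest fitted value of the 6 members above 0, and a single library set it. Its share was 12.8% in CB-6644 replicate 4 and 2.75% to 3.48% in the other 7. The lowest fitted value, -1.04 for RPS29, was likewise set by 1 library. The RPS29 share was 15.2% in DMSO replicate 1 and 1.60% to 2.24% in the other 7. Pairs 2 to 4 of RPS29 differed by -0.22, -0.28 and -0.30 (log2). Ribosomal protein genes have many near-identical processed copies in the genome, and how reads were split between copies was not tested.

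Vertebrate ribosomal protein mRNAs and many snoRNA host genes begin with a 5′ terminal oligopyrimidine tract, a stretch of C and T letters at the transcription start. To look for such letters near the start, the 30 bases from 10 before to 20 from the annotated start were taken (RefSeq, GRCh38.p14, coding strand only). They were searched for CTTTC or CTTTT, where neighbouring matches may share a base. A counted match may begin before the annotated start, outside the annotated transcript, so the search does not show a tract at the start. Of the 75 ribosomal protein genes, 60 had a sequence, and 40 of those held a match (66.7%), as did 5 of 12 SNHG genes with a sequence (41.7%). The share was 7.39% of 27305 promoters in the reference table and 6.54% of the genes tested. Among ribosomal protein genes the median log2 difference in labelled share was -0.29 in the 40 with a match and -0.32 in the 20 without. The windows of 6 members named here follow 5′ to 3′, with the matched letters in capitals, and PPIA, a gene with a lower labelled share that is described below, is shown as one without a match.
RPS12 (chr6:132814559-132814588, plus strand): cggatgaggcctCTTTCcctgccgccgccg
RPS23 (chr5:82278335-82278364, minus strand): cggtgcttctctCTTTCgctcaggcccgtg
RPS3 (chr11:75399508-75399537, plus strand): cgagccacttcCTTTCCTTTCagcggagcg
SNHG8 (chr4:118278752-118278781, plus strand): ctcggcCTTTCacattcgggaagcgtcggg
SNHG29 (chr17:16438977-16439006, plus strand): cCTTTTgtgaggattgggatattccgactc
SNHG32 (chr6:31834906-31834935, plus strand): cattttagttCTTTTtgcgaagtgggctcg
PPIA (chr7:44796671-44796700, plus strand): ggctcgtgccgttttgcagacgccaccgcc
In RPS12, RPS23 and RPS3 the match begins just after the annotated start, in SNHG32 it begins at the start, and in SNHG8 and SNHG29 it begins before the start. A match is a description of these letters and not a measured tract.

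The snoRNA host genes were looked at as a group of all genes named SNHG with a number, SNHG25 included. The group was chosen after values were seen. Of 14 tested, 4 had a lower labelled share at an unadjusted p under 0.05 and 0 a higher one, where 3.57% of all genes were lower and 3.21% higher. The median difference was -0.07, with 7 of 14 below 0. SNHG29 was at 3.63%, 3.39%, 3.65% and 3.09% labelled with CB-6644 and 4.70%, 5.86%, 6.97% and 7.07% with DMSO (log2 difference -0.84, SE 0.12, edgeR adjusted p = 0.139). SNHG8 was at 19.5%, 16.2%, 12.6% and 14.9% against 25.4%, 21.9%, 21.2% and 23.8%, also without overlap. SNHG32 was at 6.10%, 6.47%, 10.3% and 11.5% against 12.8%, 10.2%, 19.7% and 22.9%, lower in all 4 pairs although the groups overlapped. In labelled reads 6 of the 14, SNHG25 among them, were lower and 1, SNHG31, was higher at an unadjusted p under 0.05. In that test 2.66% of all genes were lower and 3.15% higher. The median of the 14 was -0.45 (log2).

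Further genes with a lower labelled share were PPIA, which encodes cyclophilin A, at 3.09% to 3.49% with CB-6644 and 4.50% to 4.82% with DMSO, and COQ8A, of coenzyme Q synthesis, at 4.85% to 7.25% against 13.1% to 17.6%. SKIC3, a subunit of the Ski complex that feeds RNA to the exosome, was at 5.97% to 9.53% against 10.4% to 14.5%. MXI1, a MAX partner that opposes MYC, was lower in all 4 pairs with overlapping groups. Genes with a higher labelled share were led by TBC1D5, a regulator of endosomal trafficking, at 6.90%, 10.1%, 7.65% and 8.69% against 2.47%, 4.11%, 4.04% and 3.62% (log2 difference 1.33, SE 0.17, edgeR adjusted p = 0.121). SPTAN1, the non-erythroid alpha-spectrin, followed at 5.57% to 6.96% against 3.89% to 4.55%. CHID1, RABL2A, CCS, the copper chaperone for superoxide dismutase, MTO1, NAPA, RHBDD2 and DPH5-DT were also among the 10 of smallest p, with log2 differences of 0.54 to 1.099. Every NAPA count in labelled reads was a multiple of 4.

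The labelled reads alone ask which genes were transcribed more or less in the last part of the 12 h. POLR2A, the largest subunit of RNA polymerase II, had the smallest p. It was at 132.2, 145.5, 168 and 151 CPM with CB-6644 and 55.9, 42.0, 55.7 and 57.2 CPM with DMSO. The groups did not overlap. The log2 fold change was 1.504, with an SE of 0.19 and an adjusted p of 0.325 from edgeR. DESeq2 called it (adjusted p = 2.91e-09), and so did edgeR when the split between replicates 1 and 2 and replicates 3 and 4 was the block (adjusted p = 0.0283). In all reads POLR2A was at 60.2, 75.7, 70.8 and 67.8 CPM against 38.9, 27.7, 33.3 and 31.9 CPM, a log2 fold change of 1.06 (SE 0.19). At 4 h its log2 fold change in labelled reads was 0.81. Over 34 RNA polymerase subunits and assembly factors the median was 0.02 (log2). Only POLR2A and RPAP2, a polymerase II phosphatase, were higher at an unadjusted p under 0.05, where 3.15% of all genes were higher. At that threshold 0 were lower, against 2.66% of all genes. In 1 member all CB-6644 libraries lay above all DMSO libraries, and in 1 all lay below. Over all genes these shares were 1.84% and 1.41%.

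**Figure D3:**
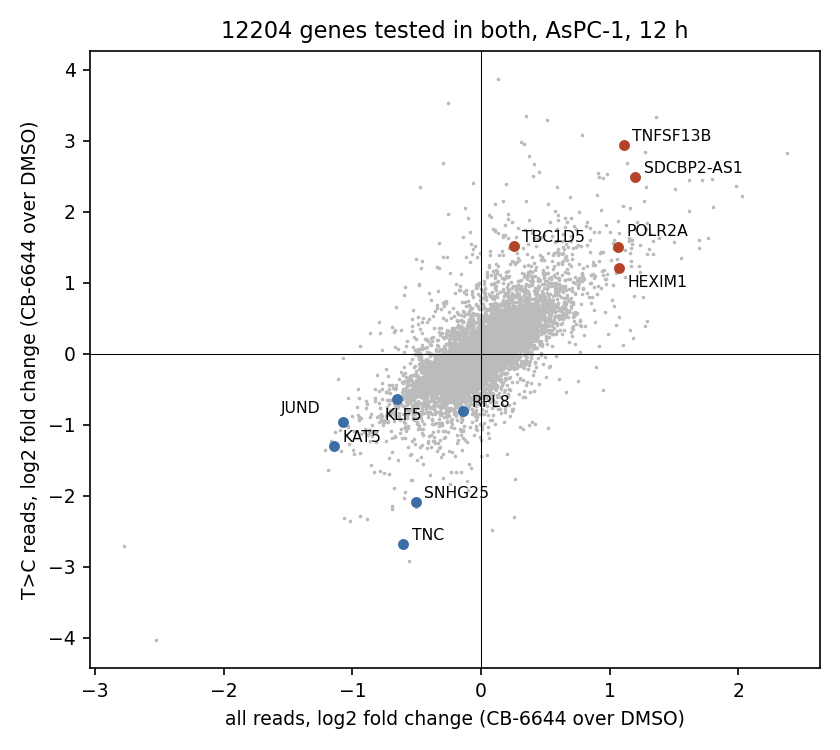
Log2 fold change of CB-6644 over DMSO at 12 h in labelled reads (vertical) against all reads (horizontal) for 12204 genes, 1 grey point each, with genes named in the text in red where higher and blue where lower. The same sign was found in 9590 genes, and POLR2A, HEXIM1, JUND and KAT5 lie away from 0 on both axes, whereas SNHG25, RPL8 and TBC1D5 lie between -0.51 and 0.26 on the horizontal axis.

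The 10 genes of smallest p that were higher, POLR2A among them, were taken by p and not as a theme. HEXIM1, which holds the elongation kinase P-TEFb inactive, was at 103, 84.3, 52.8 and 52.1 CPM of labelled reads against 47.7, 37.1, 19.3 and 25.1 CPM (log2 fold change 1.1995, SE 0.19, edgeR adjusted p = 0.426). TAF12, a subunit of TFIID and SAGA, was at 47.4, 57.0, 80.6 and 61.8 CPM against 25.7, 28.5, 27.7 and 28.2 CPM (log2 fold change 1.14, SE 0.20). ICE2, a subunit of the little elongation complex that acts at small nuclear RNA genes, was at 62.3, 78.2, 89.6 and 100 CPM against 37.9, 36.3, 37.0 and 42.7 CPM (log2 fold change 1.08, SE 0.19). In all 3 the 4 CB-6644 libraries lay above the 4 DMSO libraries, as in 224 of 12204 genes (1.84%), whereas 172 genes (1.41%) lay wholly below. At 4 h their log2 fold changes were 0.32, 0.09 and 0.05. The remaining genes of the 10 were SDCBP2-AS1 (2.49), TBC1D5 (1.51), DPH5-DT (1.13), KRCC1 (1.48), TNFSF13B (2.94) and EPHX2 (1.58, all log2 fold changes). SDCBP2-AS1 and DPH5-DT are transcribed against SDCBP2 and DPH5. Every KRCC1 count was even.

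Among genes that were lower in labelled reads, KAT5 followed SNHG25. It encodes the acetyltransferase TIP60, the catalytic subunit of a complex that itself holds RUVBL1/2. KAT5 was at 70.7, 71.7, 54.9 and 34.1 CPM with CB-6644 and 171, 112, 130 and 140 CPM with DMSO. Its log2 fold change was -1.30, with an SE of 0.25, and the adjusted p was 0.514 by edgeR and 0.0008 by DESeq2. The groups did not overlap. Across 28 tested subunits of INO80, SRCAP and TIP60 the median was -0.05, and 2 were lower and 0 higher at an unadjusted p under 0.05, where 2.66% of all genes were lower. They were KAT5 and ING3, another TIP60 subunit, at 18.7 to 22.9 CPM against 27.1 to 44.8 CPM. In 1 other member, EPC2, all CB-6644 libraries lay above all DMSO libraries (log2 fold change 0.26). JUND, an AP-1 subunit, was at 25.3, 23.8, 27.4 and 24.9 CPM against 53.7, 48.3, 59.1 and 38.0 CPM (log2 fold change -0.96, SE 0.19). BBC3, the pro-apoptotic BH3-only protein PUMA, was at 17.7 to 22.04 CPM against 35.9 to 41.4 CPM (log2 fold change -0.97, SE 0.19), and its counts were all multiples of 4. FGF19, a secreted growth factor, was at 19.95 to 35.8 CPM against 36.9 to 84.3 CPM (log2 fold change -0.96, SE 0.19), and was also lower at 4 h, by -0.88. MNT, a MAX partner, the matrix glycoprotein gene TNC, ANAPC15 of the anaphase-promoting complex, CSKMT and SCARNA9 completed the 10, with log2 fold changes of -2.93 to -0.96. TNC was at 0.131 to 7.96 CPM in replicates 1 and 2 of either arm. SCARNA9, which had as few as 1 labelled read in a library, overlaps CEP295 on the same strand.

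**Figure D4:**
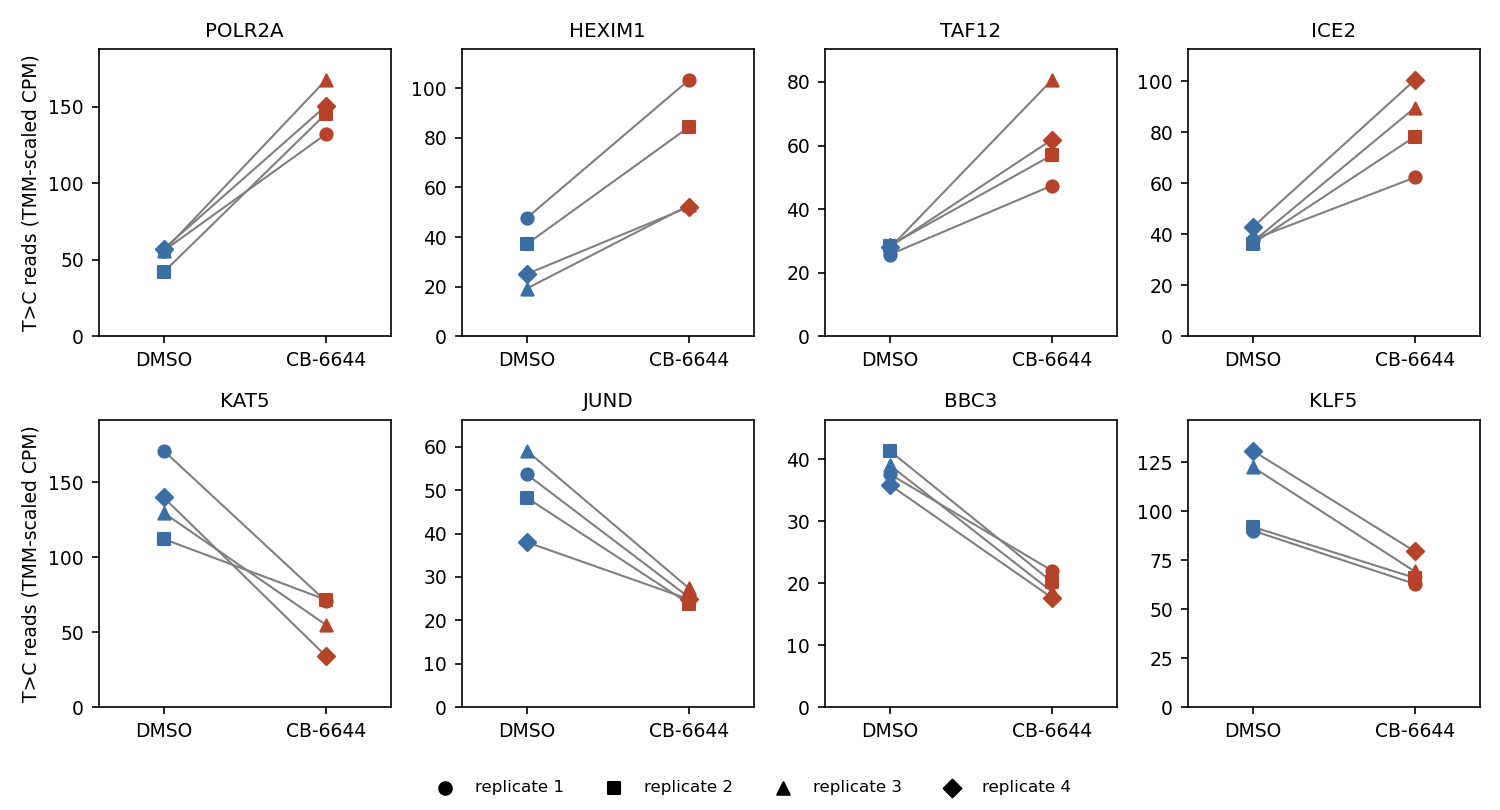
Labelled reads of 8 genes in TMM-scaled CPM, with DMSO and CB-6644 for 12 h. Each line joins the libraries of 1 replicate number, and the vertical axes start at 0. The upper 4 genes are higher with CB-6644 in every library (POLR2A 132.2 to 168 against 42.0 to 57.2 CPM), and the lower 4 genes are lower in every library (KLF5 62.9 to 79.6 against 90.2 to 131 CPM).

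KLF5 itself, the zinc-finger factor whose cofactors the series addresses, was at 62.9, 66.0, 69.3 and 79.6 CPM of labelled reads with CB-6644 and 90.2, 92.1, 123 and 131 CPM with DMSO. All 4 CB-6644 libraries were below all DMSO libraries, and the log2 fold change was -0.64, with an SE of 0.18 and an adjusted p of 0.669 from edgeR. In all reads it was at 15.3, 21.3, 17.1 and 18.5 CPM against 30.9, 24.7, 28.1 and 29.2 CPM (log2 fold change -0.65, SE 0.19), also without overlap, where 121 genes (0.84%) lay wholly below and 207 (1.44%) wholly above. At 4 h the log2 fold change of KLF5 in labelled reads was 0.01. Reads over the 3′ UTR would come from the endogenous locus or from a cDNA that kept this UTR, and which was not tested. RUVBL1 and RUVBL2, the proteins CB-6644 binds, had log2 fold changes of 0.07 (SE 0.26) and -0.06 (SE 0.23) in labelled reads and 0.00 (SE 0.23) and -0.10 (SE 0.22) in all reads, with signs that turned under other settings. The inhibitor acts on the protein, so these RNA levels do not check the treatment.

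The list of KLF and SP factors, the family to which KLF5 belongs, also had a median below 0. Of 14 KLF and SP factors tested in labelled reads, 12 were below 0, and 6 were lower and 0 higher at an unadjusted p under 0.05, against 2.66% of all genes lower. The median was -0.51 (log2), and 0.00 over all genes. KLF11, a TGF-beta-inducible repressor, was at 39.0, 18.1, 34.4 and 29.1 CPM with CB-6644 and 59.9, 43.2, 52.1 and 45.5 CPM with DMSO (log2 fold change -0.78, SE 0.20). SP2 was at 2.96 to 5.37 CPM against 7.46 to 11.5 CPM, a log2 fold change of -1.10 (SE 0.30). KLF2 was at 8.73 to 12.2 CPM against 10.6 to 27.6 CPM and overlapped. The 2 members above 0 were SP4 (0.21) and KLF12 (0.18), both with overlapping groups. In all reads the list's median was -0.42, with 14 of 16 below 0 and a pair median of 0.01 in replicate 2. The median at 4 h was -0.26 in labelled reads.

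Transcription factors of the classical subtype, the more differentiated form of this tumour, had a median of -0.38 in labelled reads, with 11 of 13 below 0 and 4 lower at an unadjusted p under 0.05, against 2.66% of all genes. EHF, an epithelial ETS factor, was at 163, 198, 53.7 and 56.3 CPM with CB-6644 and 254, 308, 150 and 136 CPM with DMSO, lower in all 4 pairs (log2 fold change -1.01, SE 0.21, edgeR adjusted p = 0.555, DESeq2 adjusted p = 0.00745). GATA6, which marks the classical subtype, was at 15.2 to 25.4 CPM against 23.5 to 31.4 CPM. EHF was also higher in replicates 1 and 2 than in replicates 3 and 4 in both arms. ELF3, another ETS factor, was at 139 to 233 CPM against 165 to 454 CPM (log2 fold change -0.38, SE 0.28), and HNF4A at 21.02 to 66.7 CPM against 16.8 to 66.5 CPM (0.25, SE 0.20). MUC1, the mucin, and MYO1A, a brush-border myosin, were low, at 0 to 18.2 against 2.83 to 20.9 CPM and at 0.153 to 5.21 against 0.181 to 5.24 CPM. FA2H, a sphingolipid hydroxylase, and SERPINB5 had log2 fold changes of -0.08 (SE 0.31) and -0.13 (SE 0.22). Classical surface and secreted genes had a median of -0.27 with 16 of 19 below 0, led by DHRS9, a retinol dehydrogenase, at 82.2, 77.7, 252 and 256 CPM against 124.6, 129, 500.2 and 537 CPM (log2 fold change -0.85, SE 0.18, DESeq2 adjusted p = 0.00733).

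Genes of the opposing basal programme also had a median below 0. All 10 basal keratin and squamous genes tested in labelled reads were below 0, with a median of -0.33. At an unadjusted p under 0.05, 3 were lower, against 2.66% of all genes. In 0 of the 10 did all CB-6644 libraries lie below all DMSO libraries, as 1.41% of all genes did. The keratin KRT16 was at 0.544 to 2.45 CPM against 2.18 to 6.999 CPM, KRT15 at 4.89 to 9.44 CPM against 6.59 to 22.3 CPM, and the laminin chain LAMA3 at 12.7 to 46.9 CPM against 15.6 to 112 CPM. Among the published tumour subtype signatures the medians were small, -0.14 for Moffitt Basal-like, -0.11 for Moffitt Classical, -0.07 for Bailey Squamous, -0.11 for Bailey Progenitor, -0.09 for Chan-Seng-Yue Basal-A and -0.12 for Chan-Seng-Yue Classical-A. The DCLK1 level, which marks the tuft cell programme, followed the split between replicates and not the treatment (log2 fold change 0.06, SE 0.40).

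**Figure D5:**
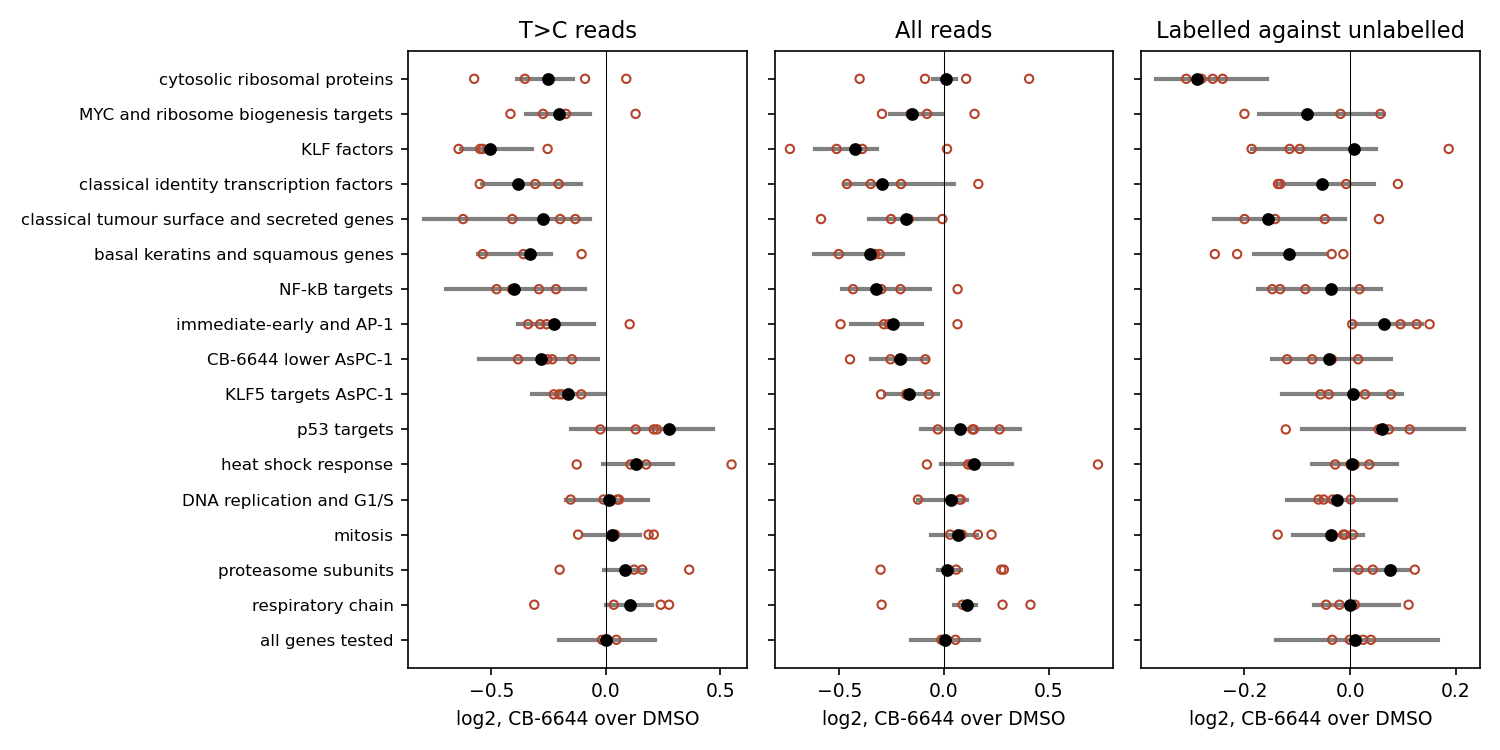
Median log2 change of CB-6644 over DMSO at 12 h for 16 gene lists and for all genes tested (black points), with the quartiles over genes (grey bars) and the medians within each of the 4 replicate pairs (open circles), in labelled reads, all reads and labelled against unlabelled reads. The 4 pairs of the ribosomal protein list spread from -0.58 to 0.09 in labelled reads and from -0.31 to -0.24 in labelled against unlabelled reads.

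Genes that the study had listed as KLF5 targets in AsPC-1 had a median of -0.17 in labelled reads, with 52 of 69 below 0 and 4 lower at an unadjusted p under 0.05, where 2.66% of all genes were lower. They were FGF19, the hedgehog effector GLI2, the Notch target HES1 and MIDN. At 4 h the median of this list was -0.29. At that time 21 of 69 were lower and 0 higher at the same threshold, against 402 and 386 of 11649 genes. In labelled share the median was 0.01 at 12 h and -0.23 at 4 h. Time and batch cannot be told apart between these contrasts. The list of genes lower with CB-6644 in AsPC-1, which the study had drawn from its own CB-6644 SLAM-seq, had a median of -0.28, with 58 of 71 below 0, 18 lower and 0 higher. It came from the same cell line and compound, and which treatment times it was drawn from is not given in the sources used here, so its direction is not independent evidence. Its median at 4 h was -0.32. ZFP36L2, an RNA-binding decay factor, was at 151, 127, 75.995 and 89.5 CPM against 392, 172, 153 and 152.3 CPM without overlap, but had a log2 fold change of 0.03 at 4 h. SHH, the hedgehog ligand, was on the other side of 0, at 24.8 to 32.9 CPM against 18.6 to 24.9 CPM. The KLF5 targets listed in T3M-4, another pancreatic line, had a median of -0.18 with 47 of 66 below 0.

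Several stimulus-response lists had medians below 0 as well. NF-kB targets had a median of -0.40, with 13 of 16 below 0 and 3 lower at an unadjusted p under 0.05, against 2.66% of all genes. These were TNFAIP3, the chemokine CCL20 and RELB. CCL20 was at 2.76, 2.23, 0.869 and 0.815 CPM with CB-6644 and 5.97, 2.46, 3.12 and 6.98 CPM with DMSO. Immediate-early and AP-1 genes had a median of -0.22, with 15 of 20 below 0. MYC was at 773, 578, 251 and 363 CPM against 1138, 409, 440 and 637 CPM, lower in 3 of 4 pairs (log2 fold change -0.43, SE 0.25), and the 12 genes of the MYC network tested had a median of -0.22. MYC and ribosome biogenesis targets had a median of -0.21, with 23 of 30 below 0. PPAN, a factor of large-subunit maturation, was at 26.7, 30.4, 51.4 and 42.7 CPM against 86.3, 59.4, 79.0 and 45.6 CPM.

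Lists for stress and checkpoint programmes had medians on both sides of 0. At the same threshold 3.15% of all genes were higher and 2.66% lower. The p53 targets had a median of 0.28 in labelled reads and 0.08 in all reads, with 2 higher (FDXR and PMAIP1) and 2 lower (BBC3 and CCNG1) at an unadjusted p under 0.05. Heat shock genes had a median of 0.13, the unfolded protein response 0.02, the integrated stress response -0.24 with none past an unadjusted p of 0.05, and interferon response genes 0.12. DNA replication and G1/S genes had a median of 0.02, and their 4 lower members were CDT1, which licenses origins, RRM2 of ribonucleotide reductase, MCM7 of the replicative helicase and UNG. Mitosis genes had a median of 0.03. Of 25 DNA repair genes 3 were higher, BRCA1 at 251 to 310 CPM against 137 to 239 CPM, FANCA and EXO1. The PIKK kinases and their TTT chaperone had a median of 0.05, R2TP and prefoldin-like subunits -0.04 and snoRNP assembly proteins 0.00, with 0 members past an unadjusted p of 0.05 in any of the 3. Proteasome subunits (0.08), respiratory chain subunits (0.11), cholesterol synthesis (-0.03), glycolysis and hypoxia genes (-0.18), ERK feedback genes (0.02), the BCL2 family (-0.09), epithelial-mesenchymal transition genes (0.00), epithelial markers (-0.28) and housekeeping genes (-0.15) complete the lists by their medians in labelled reads.

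In all reads, small non-coding RNAs held extreme places in both directions. SNORD68, a box C/D snoRNA in an intron of RPL13, was at 8.34, 3.76, 1.24 and 1.14 CPM with CB-6644 and 0.0335, 0.257, 0.102 and 0.115 CPM with DMSO. Every CB-6644 library was above every DMSO library. The log2 fold change was 4.44, with an SE of 0.72, and the adjusted p was 0.668 by edgeR and 5.06e-10 by DESeq2. SNORD46, another box C/D snoRNA, was at 1.09, 1.405, 0.113 and 0.114 CPM against 0.123, 0.118, 0.0239 and 0.00545 CPM, higher in each pair (3.23, SE 0.48). The 4 h libraries gave 3.84 and 3.43 for this pair. Of 17 SNORD genes tested, a group chosen after values were seen, 4 were higher and 1 lower at an unadjusted p under 0.05, where 2.35% of all genes were higher and 1.69% lower, and the median was 0.14. Of 10 SNORA genes, chosen in the same way, 9 were below 0 with a median of -0.67, but 1 was lower and 0 higher at an unadjusted p under 0.05, and the pair median was 0.52 in replicate 2. In the other direction SNORA50C, an H/ACA snoRNA inside SNHG25, was at 0.0334, 0.0127, 0.00664 and 0.0114 CPM against 0.391, 0.368, 0.299 and 0.202 CPM (-4.29, SE 0.59). RNVU1-25, a variant of the U1 small nuclear RNA, was at 0.0143, 0.0191, 0.0266 and 0.0286 CPM against 0.351, 0.361, 0.802 and 0.900 CPM (-4.66, SE 0.47, edgeR adjusted p = 0.170), and the rows summed under the name U1 were at 0 to 0.0763 CPM against 0.257 to 0.748 CPM. U1 genes are near-identical copies, so the split of reads between them is uncertain, and these libraries counted polyadenylated RNA, so the levels do not measure the mature small RNAs. The lowest library of SNORD46, SNORA50C and RNVU1-25 held 1 to 3 reads.

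Protein-coding genes made up most of the 10 of smallest p on either side in all reads. SNRPA, which encodes a protein of the U1 particle, was at 7.48, 10.7, 10.7 and 8.32 CPM against 29.4, 18.8, 23.2 and 13.1 CPM, without overlap (log2 fold change -1.13, SE 0.24). HNRNPDL, an abundant splicing regulator, was at 320, 339, 241 and 253 CPM against 771, 515, 502 and 479 CPM (-0.96, SE 0.19), and had a log2 fold change of 0.12 at 4 h. JUND was at 9.19 to 10.9 CPM against 16.9 to 23.7 CPM (-1.07, SE 0.17). POU2F3, the tuft cell factor, DHRS9, and the zinc-finger genes ZNF586 and ZNF772 filled the other places, at -2.47 to -0.78. On the higher side KRCC1, HEXIM1, POLR2A, LINC01252, BDNF-AS, CCDC146, PCYOX1L and RXFP4, a relaxin-family receptor, had log2 fold changes of 1.06 to 1.81.

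The 12 h and 4 h effects were compared directly in 1 fit, in which time and batch cannot be told apart. None of 12720 genes passed in labelled reads (0%) and none of 14835 in all reads (0%), where the 4 h contrast by itself also had no call in labelled reads (0% of 11649) or all reads (0% of 13891). The smallest p in labelled reads belonged to CEACAM1, an adhesion molecule, with a 12 h effect 1.27 (log2, SE 0.21) above the 4 h effect (edgeR adjusted p = 0.588). For POLR2A the unadjusted p of this difference was 0.00595 and for SNHG25 it was 0.000499.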

How the data were processed

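The authors aligned single-end QuantSeq 3′ reads with slamdunk to hg38 and summed reads over GENCODE v44 3′ UTR exons. The deposited tables hold, per gene and library, counts of reads with T>C changes and counts of all reads, not normalized. Groups and replicate numbers came from the labels. Low counts were removed with filterByExpr, and edgeR 4.0.16 (TMM, quasi-likelihood test, Benjamini-Hochberg, threshold 0.05) was fitted in R 4.3.3 to labelled reads, all reads, and labelled against unlabelled reads of the same library, with the replicate number as a block. DESeq2 1.42.0 was an alternative. CPM values are TMM-scaled, except the DCLK1 levels and the marker sums, which were scaled to the library total alone. The log2 CPM values behind the differences within pairs used a prior count of 2. SE is the size of the log2 change over the square root of F.

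The comparison was set to block by replicate number. Deviations from the group means were correlated between the 2 libraries of each number. In replicates 1 to 4 the correlations were 0.414, 0.330, 0.650 and 0.442 in labelled reads and 0.512, 0.424, 0.773 and 0.523 in all reads. CB-6644 replicate 2 correlated more with DMSO replicate 1 (0.546 and 0.661), and CB-6644 replicate 4 more with DMSO replicate 3 (0.610 and 0.739). The correlations thus follow the split between replicates 1 and 2 and replicates 3 and 4. They do not show that libraries of the same number were true pairs. The named genes were KLF5, RUVBL1, RUVBL2, ELF3, FA2H, MUC1, MYO1A, HNF4A, SERPINB5, MYC and DCLK1, the 10 genes of smallest p in each direction and fit that kept that direction in all 4 pairs, and up to 4 members a list. Members, lists and tests were chosen with earlier results of these data known. List entries under clone names that the count tables lack were left out of the lists after the tables were read. Gene lists gave replication-dependent histones too few genes (2 in labelled reads) to describe. On simulated counts for 12340 genes, the labelled against unlabelled fit recovered 25 of 97 genes changed by 1 and 101 of 103 changed by 2 (log2), with 14 false calls. In another AsPC-1 sample, labelled dTAG 3.1, the column of all reads equalled the labelled reads of DMSO replicate 2 in all 29794 genes, and that sample was not used. The T3M-4 tables were not used. A few named genes are not reported here.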

Additional observations from a re-analysis of the deposited data

Results flagged for a closer look

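Of 166 groups of 4 libraries looked at for the named genes and the labelled share, 10 had a library whose gap to its nearest neighbour, as a part of the group's range, exceeded Dixon's 95% critical value for 4 samples, and chance alone passes about 1 group in 20. For ELF3 the DMSO group passed in labelled reads (0.943) and in all reads (0.892), with replicate 1 highest at 454 and 116.1 CPM. In labelled reads, DMSO replicate 2 was low for POLR2A (0.903, at 42.0 CPM). CB-6644 replicate 1 was low for TBC1D5 (0.932, at 7.91 CPM), CB-6644 replicate 2 was low for DPH5-DT (0.889, at 62.1 CPM) and for CSKMT (0.838, at 11.4 CPM), and CB-6644 replicate 3 was high for MYO1A (0.856, at 5.21 CPM). In all reads, DMSO replicate 1 was high for HNRNPDL (0.875, at 771 CPM), DMSO replicate 2 was low for SERPINB5 (0.867, at 11.3 CPM) and CB-6644 replicate 1 was high for ZNF772 (0.869, at 0.129 CPM).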

How the results depend on the processing

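With the replicate block the edgeR test gave 0 calls in labelled reads and 0 in all reads, and without it 0 in both. DESeq2 with the replicate block gave 51 and 45. Taking the split between replicates 1 and 2 and replicates 3 and 4 as the block, an alternative chosen after seeing the data, gave 1 (POLR2A) and 1 (RNVU1-25), and keeping genes of any count gave 1 in all reads. For the labelled share per gene there were 2 calls with the replicate block, 2 without it (SNHG25 and RPL8), 1 with a single library size for both fractions (RNU4ATAC, with SNHG25 at an adjusted p of 0.0596) and 0 to 1 without 1 replicate. The library-wide labelled share differed by -0.430 points, by -0.147 points without the 100 genes of most reads, and by -0.704 to -0.172 points without 1 replicate. The cause of these moves was not tested. The signs of genes near 0 turned. In all reads RUVBL1 (0.00) was at -0.012 with DESeq2 and with RLE scaling, and at -0.0069 with the split between replicates as the block. It was at -0.00162 with a mean of at least 50 reads, at -0.34 in replicates 1 and 2 alone and at -0.25 to 0.18 without 1 replicate. Replicates 1 and 2 alone gave 0.081 for DCLK1 and 0.035 for FA2H in all reads, and 0.12 for FA2H and -0.015 for RUVBL1 in labelled reads. Replicates 3 and 4 alone gave 0.15 for RUVBL2 in all reads, and 0.20 for RUVBL2 and -0.39 for DCLK1 in labelled reads, where DCLK1 without the block was at -0.37. Without 1 replicate, all reads gave -0.45 to 0.057 for FA2H, -0.044 to 0.17 for HNF4A, -0.31 to 0.054 for RUVBL2 and -0.27 to 0.051 for SERPINB5. Labelled reads gave -0.39 to 0.38 for DCLK1, -0.46 to 0.15 for FA2H, -0.019 to 0.22 for RUVBL1, -0.16 to 0.15 for RUVBL2 and -0.32 to 0.0019 for SERPINB5. The ribosomal protein median in labelled share stayed between -0.31 and -0.26 under all its alternatives. Over named genes 831 alternative values kept their direction and side of the threshold, 42 newly passed it, 9 no longer did and 24 turned, and over list medians 1069 moved by less than the spread between pairs and 80 by more. Depth limits the small non-coding RNAs, which had as few as 1 read in a library.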
